A study of Mus musculus with 4 samples.

Results

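Malat1, Neat1, Meg3, Rian, Mirg, Kcnq1ot1 and Airn are long noncoding RNAs that stay in the nucleus, and the last 5 of them are read from imprinted domains, where only the maternal or the paternal copy is transcribed. These 7 RNAs were found by matching their symbols to the 57010 Ensembl gene identifiers of the count table, and all 7 were among the 23023 genes with enough counts to be fitted. They were chosen by symbol with their log2 fold changes between the groups in these same libraries already known, so their own changes are described below without a test. RNA was sequenced from testes of male ICR mice that were 8 weeks old when purchased, before treatment. Busulfan (BUS), an alkylating drug that kills dividing germ cells, was used to induce oligospermia in them. The BUS group received 30 mg/kg of BUS by a single intraperitoneal injection in 5% DMSO and, from 2 weeks later, the corn oil vehicle by gavage. The ULA group received the same BUS injection and then a daily gavage of 50 mg/kg of the plant triterpenoid ursolic acid (ULA) for 4 weeks. Each group had 2 libraries, here called by their replicate numbers 1 and 2. The ULA columns of the count table carry an extra letter A that no source explains, and they were matched by group and number. Both groups carried the BUS injury, and untreated mice were not analysed here, so no value below is relative to a normal testis. The methods of the study give 2 biological replicates and 1 technical replicate. Neither they nor the labels say which libraries these are or which animals gave them, so p-values measure only the spread between these libraries.

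Malat1 collects at nuclear speckles, the bodies that store splicing factors, and Neat1 is the RNA scaffold on which paraspeckles are built. Both lie side by side on the same strand, and their long transcripts end in a triple helix of RNA, cut by RNase P in front of a tRNA-like structure, in place of a usual poly(A) tail. Meg3, Rian and Mirg are made from the maternal copy of the Dlk1-Dio3 domain: Meg3 is the lncRNA next to the imprinting control region, Rian hosts C/D box snoRNAs and Mirg hosts a cluster of miRNAs. Kcnq1ot1 and Airn are made from the paternal copy of their domains, each antisense to a protein gene (Kcnq1 and Igf2r), and each is known to silence neighbouring genes on that copy in the mouse embryo or placenta.

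The 3′ ends of the 2 nuclear body RNAs are shown because they are what sets Malat1 and Neat1 apart from the other members in sequence. Capitals mark the runs of at least 11 bases that the last 100 bases of Neat1 share with the end of Malat1. There are 3 of them, 2 of them rich in U (TTTCTTTTCCTGA and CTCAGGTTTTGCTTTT) and the last an A-rich tract (AAAAAGCAAAA), and U-rich and A-rich stretches of this kind are what pairs into the triple helix. Letters are given as DNA, 5′ to 3′ on the transcribed strand, from the GENCODE M21 transcripts on GRCm38.
Malat1 (84 bases, chr19:5795982-5796065, minus strand): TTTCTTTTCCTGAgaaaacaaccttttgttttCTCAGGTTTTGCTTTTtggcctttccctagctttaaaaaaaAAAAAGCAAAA
Neat1 (90 bases, chr19:5824708-5824797, minus strand): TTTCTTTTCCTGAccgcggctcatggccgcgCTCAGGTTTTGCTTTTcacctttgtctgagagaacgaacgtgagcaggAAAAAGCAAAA
Of 141767 annotated transcripts searched on their own strand, 2 carried the 3 runs in this order within 100 bases, and they belong to these 2 genes. Both had to match because the runs were taken from them, so the search shows only that no other annotated transcript held these exact runs. In Neat1 the stretch is the last part of the annotated long transcript, whereas the annotated Malat1 transcript runs on for 292 bases beyond it. The spacers between the runs are 19 and 25 bases in Malat1 and 18 and 32 bases in Neat1.

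Promoter windows are shown for Kcnq1ot1 and Meg3, the members with the largest fitted differences in each direction with TMM scaling. With an offset for GC content and transcript length, Kcnq1ot1 was at 0.65 on the log2 scale and Malat1, at 2.60, had the largest positive value. Each window runs from 250 bases before to 50 after the start given by RefSeq (GRCm38.p6), on the transcribed strand. The motifs searched were CCAAT and TGACGTCA on both strands and TATAAA on the transcribed strand, none overlapping another, and capitals mark their matches.
Kcnq1ot1 (chr7:143296498-143296797, minus strand): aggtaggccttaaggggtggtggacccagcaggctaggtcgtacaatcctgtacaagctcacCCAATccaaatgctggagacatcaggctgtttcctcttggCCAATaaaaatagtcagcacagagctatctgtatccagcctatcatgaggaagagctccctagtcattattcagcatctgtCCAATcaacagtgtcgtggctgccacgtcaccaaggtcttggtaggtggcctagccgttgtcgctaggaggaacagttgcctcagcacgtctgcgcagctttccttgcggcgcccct
Meg3 (chr12:109540746-109541045, plus strand): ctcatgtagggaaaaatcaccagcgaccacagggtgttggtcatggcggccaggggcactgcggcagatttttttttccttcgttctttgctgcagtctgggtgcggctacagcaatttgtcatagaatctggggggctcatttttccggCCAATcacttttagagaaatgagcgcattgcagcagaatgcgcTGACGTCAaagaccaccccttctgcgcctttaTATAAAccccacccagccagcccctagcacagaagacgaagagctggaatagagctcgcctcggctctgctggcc
The Kcnq1ot1 window held 3 CCAAT boxes, starting at -188, -148 and -67 from the start site, and 3.37% of the 32851 RefSeq windows of this length held as many. This Meg3 window held a CCAAT box at -100 (37.4% of windows have at least 1), the cAMP response element TGACGTCA at -57 (1.79% of windows) and TATAAA at -25 (8.32% of windows). RefSeq windows were matched for 6 of the 7 members, Neat1 being the one not matched. The Malat1, Rian and Airn windows held no match to the 3 motifs, and the Mirg window held a CCAAT at -184. The windows also differed in CpG dinucleotides, from 13 in the Meg3 window shown and 10 each in Malat1 and Mirg to 9 in Kcnq1ot1, 3 in Airn and 0 in Rian, against a median of 7 over all windows. RefSeq gives Meg3 another start further downstream, whose window held 1 CpG and none of the 3 motifs. Each match is a description of the letters in the window, not of a bound site.

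Depth was similar, with 18147335 and 18216380 counts after BUS alone against 16312898 and 15078828 after ULA, so a count of 0 allowed up to 0.148 to 0.238 CPM (3 counts, counting error only). Levels are given in CPM, the counts of a gene relative to the total of its library after scaling by TMM, whose factors ran from 0.839 to 1.12. By edgeR's quasi-likelihood test at an adjusted p of 0.05, 2706 genes rose and 3512 fell with ULA. An unnamed identifier, ENSMUSG00000119584, took 0.00418% and 0.000637% of BUS library totals, against 7.88% and 18.5% after ULA. Lars2 took 0.00260% and 0.00189% with BUS and 0.714% and 1.31% with ULA. Protein-coding genes took 96.8% and 96.3% of the BUS totals and 87.4% and 76.9% of the ULA totals. The libraries thus differed in make-up, and the part of this in the members' values, those of Malat1 and Kcnq1ot1 included, was not tested. All markers listed for Sertoli, Leydig and germ cells were detected in every library, as a testis label implies. In tissue RNA, fewer cells of a type and less RNA per cell cannot be told apart, and this applies to every level below.

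Across the 7 RNAs the treatment groups did not differ in a single direction. Malat1 and Kcnq1ot1 were about 7 times more abundant with ULA, Meg3 and Rian were 9.68 and 3.97 times less abundant, and Neat1, Mirg and Airn had smaller differences. With the offset for GC content and length, the log2 fold change of Kcnq1ot1 was 0.65 and that of Malat1 2.60. By the test fitted over all genes, 2 of the 7 were called higher, 2 lower and 3 were not called, where 27.0% of all genes tested were called (11.8% higher and 15.3% lower). The libraries of the groups did not overlap for 6 of the 7 RNAs, 3 higher and 3 lower with ULA, where 75.1% of all genes tested did not overlap (37.9% higher and 37.2% lower). Over 16 alternative fits, Malat1, Meg3 and Rian were called in all, Kcnq1ot1 in 15 (not with the GC and length offset alone), Neat1 as lower in 5, Mirg as higher in 1 and Airn in 0. Nothing is read from these counts, because the RNAs were picked with these results known. The median log2 fold change of the 7 was 0.71, from -3.27 to 2.84, beside a median of 0.02 over all genes tested. Together they took 0.101% and 0.0886% of the BUS library totals and 0.2725% and 0.1725% of the ULA totals. Malat1 alone made up 32.4% and 34.3% of the counts on the 7 with BUS and 86.1% and 81.7% with ULA.

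**Figure D1:**
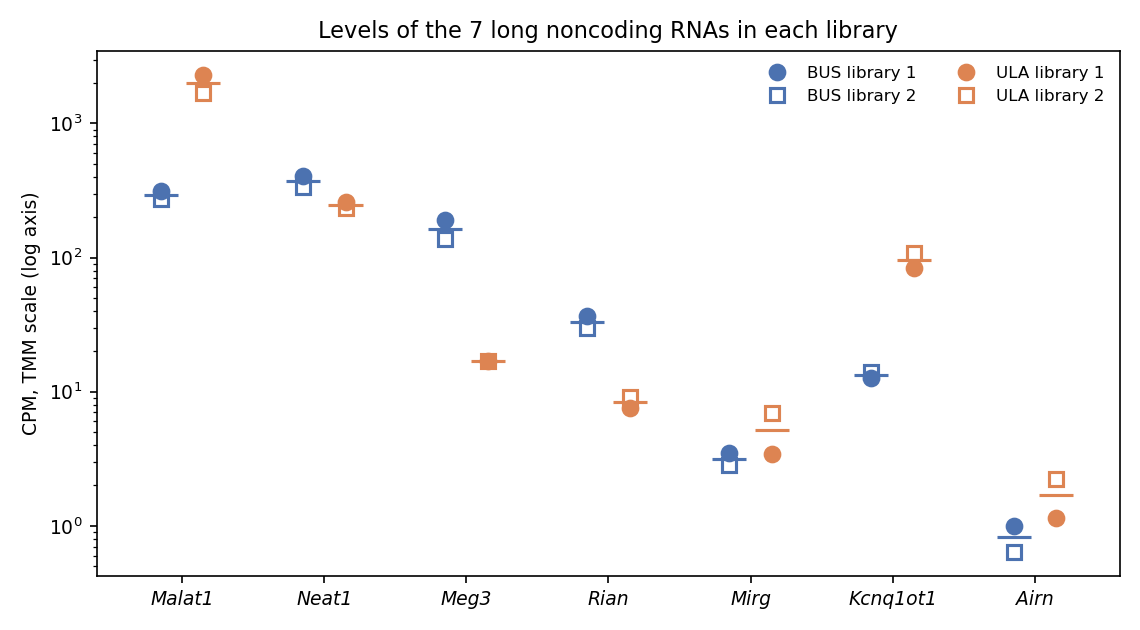
Level of each of the 7 RNAs in each library, in CPM on the TMM scale on a log axis. Filled circles are library 1 and open squares library 2 of the BUS (blue) and ULA (orange) groups, and bars are the means of 2 libraries. Malat1 and Kcnq1ot1 sit higher with ULA, Meg3 and Rian lower, and the Mirg libraries overlap.

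Malat1 (ENSMUSG00000092341, chr19:5795690-5802672, minus strand, GRCm38, a lincRNA of 1 exon and 6983 bases) had 312 and 273 CPM with BUS, against 2315 and 1684 CPM after ULA. Both ULA libraries were above both BUS libraries, the lower ULA library being 5.39 times the higher BUS library. Means were 292 ± 28.2 CPM with BUS and 2000 ± 446 CPM with ULA (SD, n = 2 each), and the fitted log2 fold change was 2.77 (standard error 0.30). Since 5937 and 5536 reads were counted after BUS alone and 38259 and 21248 after ULA, the spread between libraries, not counting error, limits these levels.

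Neat1 (ENSMUSG00000092274, chr19:5824708-5845478, minus strand, 20771 bases) had 406 and 336 CPM with BUS and 262 and 235 CPM with ULA. The groups did not overlap, but the lower BUS library was only 1.28 times the higher ULA library. The means were 371 ± 49.5 CPM and 248 ± 19.1 CPM (SD, n = 2 each), with a log2 fold change of -0.58 (standard error 0.23). That value moved with the scaling and correction of the libraries, from -0.29 with upper-quartile scaling to -1.34 when GC content and transcript length were corrected for, negative under every setting tried. Neat1 makes a short and a long isoform that share a start, the long one being the scaffold of paraspeckles, and the gene-level counts do not separate them.

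The relation of Malat1 to Neat1 within a library does not depend on scaling. Malat1 counts were 0.770 times Neat1 counts in BUS library 1 (exact 95% interval 0.744 to 0.796, counting error only) and 0.812 times in BUS library 2 (0.783 to 0.841). In the ULA libraries the ratios were 8.85 (8.58 to 9.14) and 7.18 (6.91 to 7.47). Neat1 therefore had more counts than Malat1 in both BUS libraries and Malat1 had more than Neat1 in both ULA libraries. Per kilobase of exon, which sets genes of different length side by side, Malat1 was above Neat1 in both groups, at means of 41.9 against 17.9 CPM per kb with BUS and 286 against 11.9 CPM per kb with ULA.

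**Figure D2:**
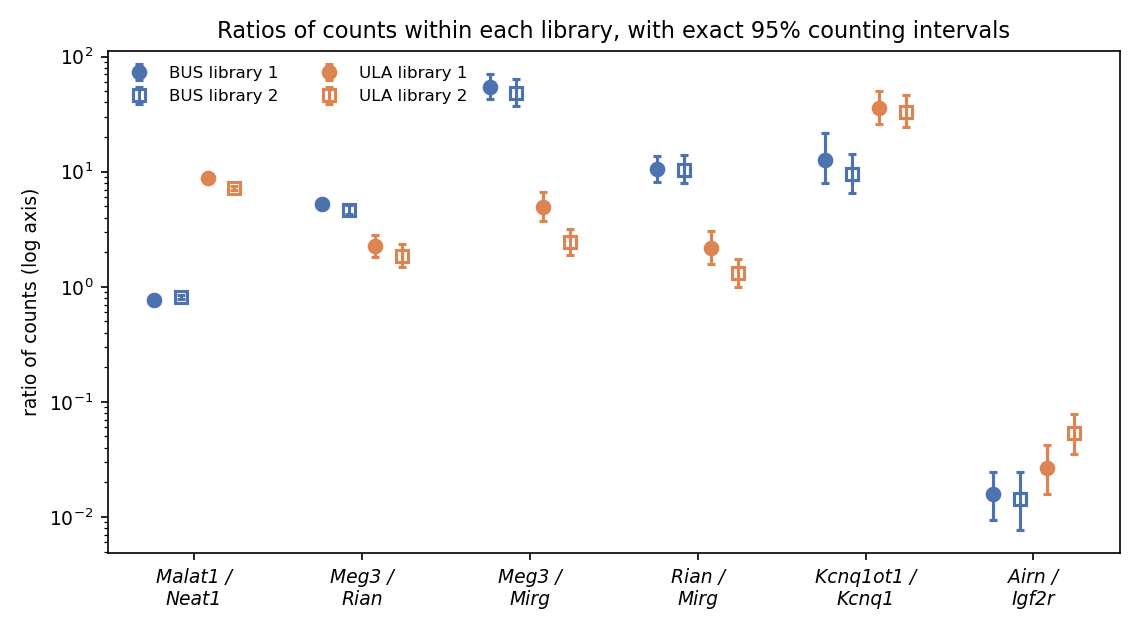
Ratios of the counts of paired genes within each library, on a log axis, with exact 95% intervals that cover counting error only. The Malat1 to Neat1 ratio lies below 1 in both BUS libraries and above 7 in both ULA libraries, and the Meg3 to Rian, Meg3 to Mirg and Rian to Mirg ratios are lower in both ULA libraries.

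Among proteins of the bodies that Malat1 and Neat1 occupy and of nuclear RNA decay, the shares that fell are read beside the 15.3% of all genes tested and the 20.5% of protein-coding genes that fell. With all libraries and no block or offset, none was called higher by edgeR or limma-voom with TMM scaling, or by DESeq2 with its own scaling. At an unadjusted p of 0.05 by edgeR, 1 was higher. Other edgeR settings called paraspeckle proteins higher, 1 with upper-quartile scaling, TMM over protein-coding genes, the GC and length offset, the replicate block or without BUS library 2, and 2 with the offset and the block together. The offset and the block together also called 1 speckle protein and 2 decay proteins higher, and the block alone 1 decay protein. Of 20 paraspeckle proteins, all tested, 3 fell and none rose by edgeR's test, with a median log2 fold change of -0.26. The 3 that fell were Nono, an RNA-binding core protein of paraspeckles (-1.18, standard error 0.31, adjusted p = 0.025), Hnrnpa1, a splicing regulator (-0.85, adjusted p = 0.044), and Rbmx, an RNA-binding protein encoded on the X chromosome (-0.83, adjusted p = 0.042). Nono went from 99.3 and 59.9 CPM with BUS to 42.2 and 27.9 CPM with ULA. The other core proteins Sfpq and Pspc1, named outside the rule for named genes after their values were seen, had log2 fold changes of -0.17 (adjusted p = 0.57) and 0.17 (adjusted p = 0.56). Of 22 nuclear speckle proteins, all tested, 4 fell and none rose, with a median of -0.26. These were Srsf2, a splicing factor of the SR family (-0.93, adjusted p = 0.025), U2af2, which recognises the 3′ splice site (-0.90, adjusted p = 0.026), the speckle protein Pnn (-0.85, adjusted p = 0.034) and Ddx39b, an RNA helicase of splicing and export (-0.83, adjusted p = 0.043). Of 18 proteins of nuclear RNA decay, which with the exosome removes nuclear noncoding transcripts, 1 fell and none rose, with a median of -0.11. That gene was Pabpn1, the nuclear poly(A)-binding protein, which had 131 and 104 CPM with BUS and 50.7 and 36.3 CPM with ULA (-1.43, standard error 0.25, adjusted p = 0.0083). The calls of all 8 of these genes were lost without ULA library 2. Those of Hnrnpa1, Rbmx, Srsf2, U2af2, Pnn and Ddx39b were also lost with upper-quartile scaling and with TMM computed over protein-coding genes, and those of U2af2 and Ddx39b with the GC and length offset.

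Within the Dlk1-Dio3 domain on chromosome 12, Meg3 and Rian were lower with ULA while the groups overlapped for Mirg, their downstream neighbour on the same strand. Meg3 (ENSMUSG00000021268, chr12:109541001-109571726, plus strand) had 191 and 139 CPM with BUS and 17 and 17.04 CPM with ULA, from 281 and 215 counts. The groups were far apart, the lower BUS library being 8.13 times the higher ULA library. Means were 165 ± 37.1 CPM and 17.02 ± 0.0298 CPM (SD, n = 2 each), for a log2 fold change of -3.27 (standard error 0.26), which is 9.68-fold lower with ULA. Among the 4500 noncoding genes tested, 0.0444% had a lower log2 fold change than Meg3. For the other members this share was 0.733% (Rian), 9.64% (Neat1), 47.8% (Mirg), 63.2% (Airn), 90.8% (Malat1) and 91.2% (Kcnq1ot1).

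Rian (ENSMUSG00000097451, chr12:109603940-109661716, plus strand) had 36.6 and 29.7 CPM with BUS and 7.50 and 9.20 CPM with ULA. The groups did not overlap, and the lower BUS library was 3.23 times the higher ULA library. Its means were 33.1 ± 4.87 and 8.35 ± 1.20 CPM (SD, n = 2 each), with a log2 fold change of -1.99 (standard error 0.28), or -2.65 after the correction for GC content and length. Mirg (ENSMUSG00000097391, chr12:109729764-109749460, plus strand) had 3.47 and 2.86 CPM with BUS and 3.45 and 6.98 CPM with ULA, from 57 to 88 counts per library. Its groups overlapped, since ULA library 1 lay between the BUS libraries, and the log2 fold change of 0.71 (standard error 0.42) became 0.14 without ULA library 2.

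The difference between the groups was thus larger at Meg3 than at Rian, and Mirg overlapped, and the ratios within a library show the same order without any scaling. Meg3 had 5.22 and 4.67 times the counts of Rian with BUS, and 2.27 and 1.85 times with ULA. Its ratio to Mirg was 55.0 and 48.5 with BUS and 4.93 and 2.44 with ULA, with exact intervals of 43.1 to 71.3, 37.4 to 64.1, 3.70 to 6.68 and 1.90 to 3.17. Rian had 10.5 and 10.4 times the counts of Mirg with BUS and 2.175 and 1.32 times with ULA, the last of these having an interval (0.991 to 1.76) that includes equal counts. For each of these 3 ratios both ULA libraries lay below both BUS libraries. mRNA libraries hardly capture the small RNAs that Rian and Mirg carry, and the 58 miRNA rows between Meg3 and the end of Mirg held 10, 6, 14 and 19 counts in BUS 1, BUS 2, ULA 1 and ULA 2, and the 18 snoRNA rows held 0, 1, 3 and 1.

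Genes read from the paternal copy of the same domain were scarce. Dlk1, which encodes a transmembrane protein related to Notch ligands, was counted 69 and 18 times after BUS and 3 times in each ULA library, and fell by 3.40 on the log2 scale (standard error 0.81, edgeR adjusted p = 0.019). Scaled for library size, its summed counts were 10.75 times higher with BUS, with an exact counting interval of 4.74 to 30.1. Its call was lost without BUS library 1 and with a minimum of 10 counts in every library, and the BUS libraries themselves differed, at 3.63 and 0.886 CPM. Rtl1, a retrotransposon-derived gene that lies antisense between Meg3 and Rian, had 0.842 and 1.03 CPM with BUS and 0.908 and 1.19 CPM with ULA (log2 fold change 0.15, adjusted p = 0.82).

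Kcnq1ot1 (ENSMUSG00000101609, chr7:143203458-143296549, minus strand, 1 exon of 93092 bases) had the largest positive log2 fold change of the 7. It had 12.7 and 14.1 CPM with BUS and 84.0 and 107.5 CPM with ULA, and the lower ULA library was 5.97 times the higher BUS library. Means were 13.4 ± 0.952 and 95.8 ± 16.6 CPM (SD, n = 2 each), and the fitted log2 fold change was 2.84 (standard error 0.25). With an offset for GC content and transcript length its log2 fold change was 0.65. Of the 5 tested genes with a longest transcript of 50 kb or more, Kcnq1ot1 itself and the others Ttn (2.94), AC160336.1 (2.84) and Gm4117 (2.04) were called higher by edgeR, and D10Wsu102e (0.42) was not. The calls of AC160336.1 and Gm4117 were lost with the GC and length offset. By length, the median log2 fold change was 0.34 for tested genes under 2 kb, -0.18 for 2 to 5 kb and -0.10 for 5 to 10 kb. It was 0.38 for 10 to 20 kb, 1.07 for the 16 genes of 20 to 50 kb, Neat1 among them, and 2.84 for the 5 of 50 kb or more. The medians were thus lowest at 2 to 5 kb and higher in each longer bin. The offset was fitted to the tested genes of known length and GC content, Kcnq1ot1 among them. Only these 5 genes reached 50 kb, so its value of 0.65 is not independent of its own change. The part of transcript length in the Kcnq1ot1 value was not tested.

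Kcnq1, the potassium channel gene that contains Kcnq1ot1 whole on the opposite strand, had 0.9996 and 1.48 CPM with BUS and 2.36 and 3.25 CPM with ULA (log2 fold change 1.17, adjusted p = 0.073). Kcnq1ot1 had 12.7 and 9.53 times the counts of Kcnq1 with BUS and 35.6 and 33.1 times with ULA. No source used here states whether the counting used strand. The annotated exons of the pair overlap over 121 bases, and since the whole of Kcnq1ot1 lies in the body of Kcnq1, unspliced Kcnq1 reads may not be told apart from Kcnq1ot1 over its full length. Cdkn1c, a cell cycle inhibitor that Kcnq1ot1 silences on the paternal copy, had 4.53 and 4.73 CPM with BUS and 4.84 and 4.04 CPM with ULA (log2 fold change -0.06, standard error 0.34, adjusted p = 0.91).

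Airn (ENSMUSG00000078247, chr17:12741311-12860136, plus strand) was the scarcest member, counted 19 and 13 times in the BUS libraries and 19 and 28 times in the ULA libraries. These are 1.00 and 0.640 CPM with BUS and 1.15 and 2.22 CPM with ULA, and the groups were separated only narrowly, by a factor of 1.15. The log2 fold change was 1.02 with a standard error of 0.51, and 0.51 without ULA library 2. Igf2r, the receptor gene that Airn silences on the paternal copy and overlaps in antisense, had 63.6 and 44.4 CPM with BUS and 43.3 and 41.1 CPM with ULA (log2 fold change -0.36, adjusted p = 0.30). Airn counts were 0.0157 and 0.0144 times those of Igf2r with BUS and 0.0265 and 0.0541 times with ULA, and exact counting intervals overlapped between BUS library 1 (0.00944 to 0.0247) and ULA library 1 (0.0159 to 0.0418). They did not overlap between ULA library 2 (0.0356 to 0.0791) and either BUS library (0.00764 to 0.0248 in BUS library 2), so the larger ratio rests mainly on ULA library 2.

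The order of the members per kilobase of exon changed between the groups. With BUS it ran from Malat1 (mean 41.9 CPM per kb) over Neat1 (17.9), Meg3 (9.11), Rian (1.82), Mirg (0.434) and Airn (0.228) to Kcnq1ot1 (0.144). With ULA it ran from Malat1 (286) over Neat1 (11.9), Kcnq1ot1 (1.03), Meg3 (0.941), Mirg (0.715) and Airn (0.468) to Rian (0.458). Malat1 and Neat1 led in both groups. Below them the ULA order was not settled: Kcnq1ot1 (0.903 and 1.16 CPM per kb in the ULA libraries) was below Meg3 (0.940 and 0.942) in library 1 and above it in library 2, and the libraries of Mirg, Airn and Rian overlapped. These levels carry no correction for GC content or length beyond the division by exon length.

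Genes around the members were compared to see whether the differences were shared along the chromosome. Of 44 tested genes within 200 kb of a member, 12 fell, 1 rose and 31 were not called by edgeR, with a median log2 fold change of -0.31 beside 0.02 over all genes. Of all genes tested, 15.3% fell and 11.8% rose, and of protein-coding genes 20.5% fell and 6.95% rose. The number of neighbours that rose was 0 with library size alone and 4 with upper-quartile scaling or the replicate block. It was 8 with the block and the GC and length offset together. On chromosome 19, none of the 21 tested neighbours of Malat1 and Neat1 rose and 6 fell by edgeR (none rose by DESeq2 or limma-voom, and 1 was higher at an unadjusted p of 0.05). These were Rela, a subunit of NF-kappaB (-1.46, adjusted p = 0.0074), Ltbp3, which binds latent TGF-beta (-1.71, adjusted p = 0.0083), Sipa1, a Rap GTPase-activating protein (-1.48, adjusted p = 0.011), the calpain protease gene Capn1 (-1.81, adjusted p = 0.014), the mitochondrial carrier gene Slc25a45 (-1.43, adjusted p = 0.014) and Pcnx3 (-0.71, adjusted p = 0.042). Closer to the pair, Frmd8os had a log2 fold change of 0.36 (adjusted p = 0.57) and Frmd8 of -0.16 (adjusted p = 0.61). Malat1 was thus higher with ULA while no tested gene within 200 kb of it was called higher by edgeR with TMM scaling and no block or offset, DESeq2 or limma-voom. On chromosome 7, 2 of 10 tested neighbours of Kcnq1ot1 fell, the tetraspanin gene Cd81 (-1.89, adjusted p = 0.0082) and Tssc4 (-1.31, adjusted p = 0.012). Of 10 tested neighbours of Airn, the receptor gene Mas1, which Airn overlaps in antisense, rose from 27.2 and 34.3 CPM to 57.1 and 68.2 CPM (1.03, adjusted p = 0.018). The acetyl-CoA acetyltransferase genes Acat2 (-1.69, adjusted p = 0.0081) and Acat3 (-1.35, adjusted p = 0.038) fell, as did Wtap, a subunit of the RNA methyltransferase complex (-0.87, adjusted p = 0.043). Of these neighbours, Acat2 and Cd81 passed under every setting tried, and the calls of the other 10 named in this paragraph as risen or fallen were lost without ULA library 2. Those of Rela, Sipa1, Capn1, Pcnx3 and Tssc4 were also lost with the GC and length offset, which left 7 neighbours lower. Those of Pcnx3, Wtap and Acat3 were lost with upper-quartile scaling, and that of Mas1 with library size alone.

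**Figure D3:**
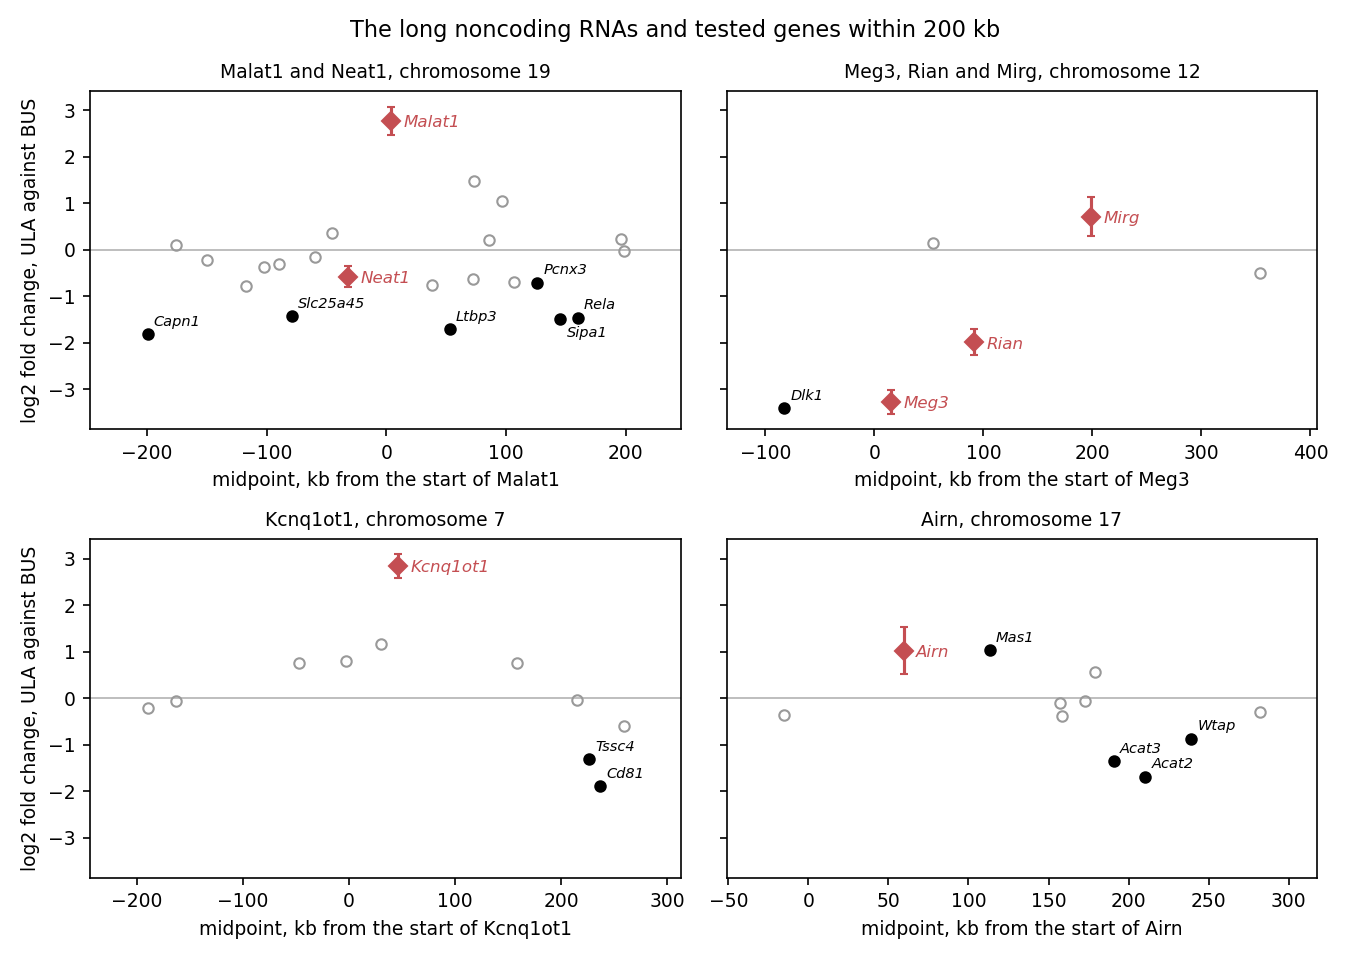
Log2 fold change of ULA against BUS for the 7 RNAs (red diamonds, bars are 1 standard error) and for tested genes within 200 kb, at the distance of each gene's midpoint from the start of the first named RNA, in kb in the direction of its transcription. Black points passed edgeR's test at an adjusted p of 0.05 and open points did not. Malat1 and Kcnq1ot1 stand above every neighbour shown, and Meg3 and Dlk1 are both low.

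Proteins that set or read imprints and repressive chromatin fell at a share near that of all genes tested, of which 15.3% were lower. The share that rose was below the 11.8% of all genes tested and the 6.95% of protein-coding genes that were higher. Of 22 listed, 21 were tested, 3 fell and none rose by edgeR (0 higher and 4 lower at an unadjusted p of 0.05, and 0 higher by DESeq2 and limma-voom), with a median log2 fold change of -0.21. Those that fell were Rbbp7, a histone-binding subunit of several chromatin complexes (-1.35, adjusted p = 0.019), the de novo DNA methyltransferase Dnmt3a (-1.24, adjusted p = 0.020) and Ehmt1, a histone H3 lysine methyltransferase (-0.82, adjusted p = 0.047). All 3 calls were lost without ULA library 2. Over the protein genes of the 3 imprinted domains, 17 of 23 were tested, 1 rose and 3 fell, all of them neighbours given above (Mas1, Dlk1, Tssc4 and Cd81), with a median of -0.11.

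Other well-known lncRNAs that passed the test changed in both directions. Of 39 listed, 34 were matched and 30 tested, of which 8 fell, 2 rose and 20 were not called, with a median log2 fold change of -0.56. Of all noncoding genes tested, by contrast, 2.02% fell and 25.6% rose, with a median of 0.75. The list, picked with earlier results known, thus ran opposite to its class. Nespas, the paternally expressed antisense RNA of the imprinted Gnas domain, rose from 2.32 and 1.62 CPM to 8.59 and 10.9 CPM (2.31, standard error 0.37, adjusted p = 0.0063). Snhg14, the host transcript of the imprinted snoRNAs of the Prader-Willi region, rose from 2.68 and 2.51 to 7.38 and 7.37 CPM (1.5, standard error 0.34, adjusted p = 0.016), a call that was lost with the GC and length correction and without either ULA library. The strongest falls by p were those of Mir22hg, the host of miR-22 (-1.85, standard error 0.33, adjusted p = 0.0084), and of Snhg11 (-1.92, standard error 0.38, adjusted p = 0.010), which had 134 and 81.9 CPM with BUS and 38.4 and 18.3 CPM with ULA. Nespas and Snhg11 passed under every setting tried, and the call of Mir22hg was lost without ULA library 2.

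The changes of the members also stood beside a shift of noncoding genes as a class. Of the 4500 noncoding genes tested, 1154 (25.6%) were higher and 91 (2.02%) lower by edgeR's test, with a median log2 fold change of 0.75, whereas of 16269 protein-coding genes 6.95% were higher and 20.5% lower, with a median of -0.22. Most of the lincRNAs lay between -0.47 and 1.65 (10th to 90th percentiles). Malat1, at 2.77, was above that range and Meg3 and Neat1 were below it, while Mirg lay near the class median of 0.78. For the antisense class the range was -0.56 to 2.10, with Kcnq1ot1 above it and Airn within it. Rian, annotated as a processed transcript, was below the range of its class (-0.87 to 1.66). These counts describe the whole table and were not used as a test of the members.

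**Figure D4:**
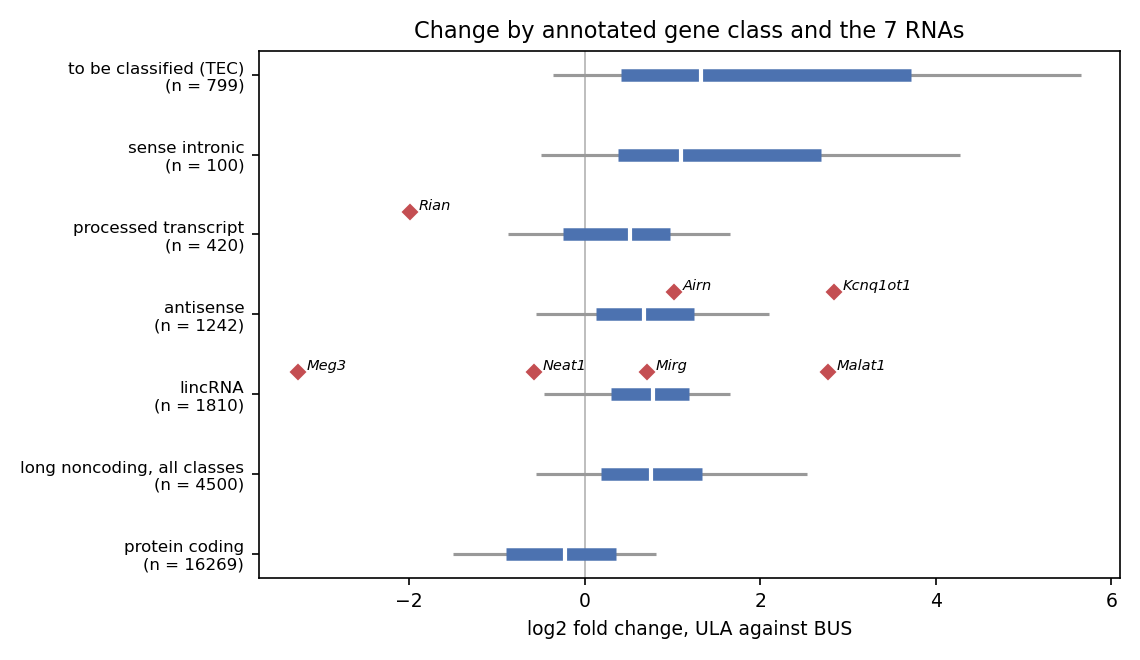
Log2 fold change of ULA against BUS by annotated class of gene. Thin lines run from the 10th to the 90th percentile of tested genes, thick bars from the 25th to the 75th, white ticks are medians, and red diamonds are the 7 RNAs in their class. Meg3, Neat1 and Rian lie to the left of the thin line of their class, and Malat1 and Kcnq1ot1 to the right.

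Markers of testis cell types differed between the same libraries. All 9 Leydig cell markers fell, with a summed level of 8636 and 5913 CPM with BUS and 1312 and 773 CPM with ULA and a median log2 fold change of -2.57. Of 11 Sertoli cell markers 10 fell (summed 5311 and 2686 CPM, then 1614 and 988 CPM, median -1.58), and of 5 peritubular markers 4 fell (median -1.34). None of 6 macrophage markers was called by edgeR, DESeq2 or limma-voom (2 lower at an unadjusted p of 0.05), and 2 of 5 endothelial markers fell. Among germ cells, 3 of 7 spermatogonial markers fell, 1 of 7 spermatocyte markers rose, and 6 of 7 spermatid markers rose (summed 1939 and 2711 CPM with BUS, 5579 and 8605 CPM with ULA, median 1.41). No marker was at 0 in any library. Without ULA library 2, 23 of these 35 marker calls were lost, 1 of 9 for Leydig, 7 of 10 for Sertoli and 5 of 6 for spermatid markers, and every call for peritubular, endothelial, spermatogonial and spermatocyte markers. Meg3 and Rian were thus lower in the libraries in which the Leydig markers and most Sertoli and peritubular markers were lower. Malat1 and Kcnq1ot1 were higher in those in which most spermatid markers were higher. The part of cell composition in the members' values was not tested.

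The genes whose levels ran most like each member over the 4 libraries were found by the Euclidean distance between log2 CPM values centred on their mean, among about 11290 named genes with at least 10 CPM on average. Meg3 was closest to Creb3l1, a transcription factor of the endoplasmic reticulum (distance 0.241), and Ass1, argininosuccinate synthase (0.398). Ass1 had 449 and 382 CPM with BUS and 59.2 and 47.2 CPM with ULA. Rian was closest to Gm10039 (0.119) and Jund, an AP-1 subunit (0.167). Malat1 was closest to Gm38394 (0.519) and Kcnq1ot1 (0.626), distances that were larger than those of the other members. Kcnq1ot1 was closest to Stox1 (0.0672) and Ttn (0.203), Neat1 to Mrnip (0.0250) and Tufm (0.0297), Mirg to Gm7353 (0.172) and Gm8857 (0.194), and Airn to Pax5 (0.141) and Arfgef3 (0.316). With 4 libraries in 2 groups, this distance is set by the difference between the groups and by how the libraries of a group differ.

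The members' changes were also fitted under 16 other settings, and each kept its sign throughout. Malat1 ran from 2.54 to 3.06 on the log2 scale, Meg3 from -3.64 to -2.98 and Rian from -2.65 to -1.69. Neat1 ran from -1.34 to -0.29, Mirg from 0.14 to 1.15 and Airn from 0.51 to 1.45. Kcnq1ot1 had the widest range, from 0.64 to 3.12, and without the offset for GC content and length its lowest value was 2.59.

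**Figure D5:**
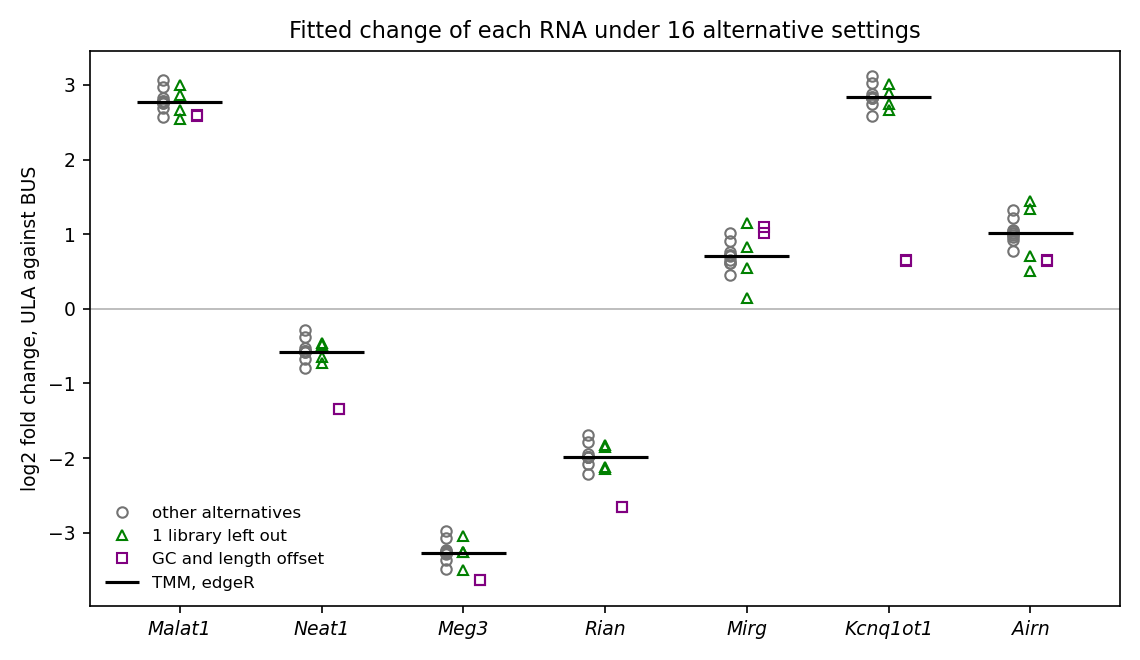
Log2 fold change of each RNA with TMM and edgeR (black bars) and under 16 alternative settings: GC and length offsets (purple squares), 1 library left out (green triangles) and other scalings, filters and tools (grey circles). Every point keeps the sign of its bar, and Kcnq1ot1 moves most, to 0.65 and 0.64 with the offsets.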

How the data were processed

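Total RNA from testis was made into libraries with an mRNA kit per the labels. The count table that the authors deposited is not normalized and has a row per Ensembl gene. Reads were trimmed by Fastp and aligned by STAR to GRCm38. FeatureCounts is given in the paper as the counter but RSEM 1.3.1 in the submitters' processing notes. Which made the whole-number counts, the gene models and the strand setting were not settled. Names, classes, coordinates and lengths came from GENCODE M21 (52029 of 57010 identifiers matched) and promoters from RefSeq.

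Genes passing filterByExpr (minimum count 10, total 15) were scaled by TMM and tested by quasi-likelihood (edgeR 4.0.16, R 4.3.3). P-values were adjusted by Benjamini-Hochberg over 23023 genes. The biological coefficient of variation was 0.242. CPM are on the TMM scale. Named were all 7 RNAs, up to 4 called genes per list by p, tested genes within 200 kb, and the 2 most similar genes with at least 10 CPM. The members, the 6 gene lists and the markers were chosen with earlier results of these data known, and no set test was run. Alternatives used DESeq2 1.42.0, limma 3.58.1 and mgcv 1.9.3 (8 basis functions). The steps were tested on simulated data.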

Additional observations from a re-analysis of the deposited data

How the results depend on the processing

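With 2 libraries a group, counts of calls depended on single libraries, while each member kept its sign in all 16 fits. Genes higher with ULA numbered 2706 in the report, 4282 with upper-quartile scaling, 4464 by an unadjusted p under 0.05 with a fold over 1.5, and 656 to 5556 with a library left out. Genes lower numbered 3512, and 714 to 6429 with a library left out, the smallest counts without ULA library 2. Other scalings moved the median of all genes by 0.28 (upper quartile, 4282 higher and 2364 lower), 0.19 (TMM over protein-coding genes, 3769 and 2741) and -0.22 (library size alone, 1877 and 5031). No filter gave 3963 and 5094.

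Upper-quartile scaling gave log2 fold changes of 3.06 for Malat1, -0.29 for Neat1, -2.98 for Meg3, -1.69 for Rian and 3.12 for Kcnq1ot1. Library size alone gave -0.79 for Neat1, -2.22 for Rian and 2.59 for Kcnq1ot1, and TMM over protein-coding genes gave -0.38 for Neat1. The GC and length offset gave -1.34 for Neat1, -3.64 for Meg3, -2.65 for Rian and 0.65 for Kcnq1ot1. The cause was not tested. With a library left out, Mirg ran from 0.14 to 1.15.

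The 3 list and neighbour genes that rose became 10 with upper-quartile scaling, 6 with TMM over protein-coding genes, 5 with no filter, 7 with the GC and length offset, 9 by the unadjusted rule and 2 to 11 with a library left out. The 31 that fell became 16 with upper-quartile scaling, 20 with TMM over protein-coding genes and 4 to 52 with a library left out. Of the 34 calls, 29 were lost without ULA library 2, 14 without ULA library 1 and 10 without BUS library 1.

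Over the genes tested, the log2 CPM difference between libraries 1 and 2 had a correlation of 0.33 between the BUS and ULA groups. Nothing in the labels ties same-numbered libraries, so the main fit did not pair them. Whether they are paired was not settled. The replicate block gave 5151 higher and 5901 lower genes (5176 and 5584 with the GC and length offset), and 11 higher and 52 lower list and neighbour genes (20 and 52 with the offset). With block and offset, Neat1 had -1.34, Meg3 -3.63, Rian -2.65 and Kcnq1ot1 0.64. Depth limits Airn most among the members, at 28 counts or fewer per library.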
